A study of Homo sapiens with 5 samples.

Results

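Iron handling was examined through 9 genes that take up, store or sense iron, chosen by name from the 6309 genes of the authors' deposited table of changes in translation efficiency. The names were FTL and FTH1 (the ferritin light and heavy chains), TFRC (the transferrin receptor), SLC11A2 (the iron transporter DMT1), ACO1 and IREB2 (the iron regulatory proteins IRP1 and IRP2), NCOA4, PCBP1, PCBP2 and HMOX1, 10 in all, and HMOX1 was not analysed here. FTL and TFRC were put in the set because of their values in this same contrast, so their coefficients and p-values are given as a description and no test of the set was made. HL-60, a wild-type human promyelocytic leukaemia line, was grown with decitabine, a nucleoside drug that traps DNA methyltransferases, or with its solvent DMSO. The drug was given at 0 hours, at 24 hours and at 48 hours, at 100 nM each time, and cells of both treatments were lysed at 72 hours. Total RNA was sequenced in 2 libraries for each treatment, and ribosome-protected fragments with barcoded linkers in 1 pool. All values come from 1 cell line, and the table held 10 of 10 promyelocytic marker genes, among them MPO and ELANE, against 0 of 15 erythroid markers and 1 of 6 monocyte and macrophage markers (CD68). Presence in the table is not a level.

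Cells keep free iron within narrow limits through stem-loops in mRNA called iron-responsive elements (IREs), to which IRP1 and IRP2 bind when iron is scarce. An IRE near the start of ferritin mRNA lets a bound protein block initiation, so that ferritin is made when iron is plentiful. IREs after the coding region of TFRC mRNA let a bound protein shield the mRNA from decay, so that the receptor is made when iron is scarce. The first mechanism acts on ribosome loading per mRNA, which translation efficiency measures. The second acts on the amount of mRNA, for which a ratio of ribosome-protected to total RNA is meant to correct. TFRC is known for high levels in dividing cells, leukaemia lines included.

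The IRE of FTL is shown because it is the element by which its translation is known to be controlled. A search of the 50 transcribed bases after each RefSeq start for the loop letters CAGTGN with a bulged C and a stem of 5 bases directly before them found this motif in 1 of 13 windows of the members, that of FTL. These windows covered 8 of the 9 genes. FTH1, the other ferritin mRNA, had no window, so its start was not searched. The motif was present in 1.67% of all 35116 windows and, on the opposite strand, in 1.66% of all windows and 0 of the 13. With all 5 stem bases paired, G-T pairs allowed, 8 windows (0.0228%) were left, among them FTL and ALAS2, the erythroid haem synthesis enzyme and another known IRE mRNA, which was not analysed here for translation. On the opposite strand 5 windows (0.0142%) had 5 pairs. Each run reads 5′ to 3′ along the mRNA in DNA letters from RefSeq (GRCh38.p14), with the loop of 6 bases in capitals.
FTL, chr19:48965329-48965358, plus strand: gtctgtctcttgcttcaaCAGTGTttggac
ALAS2, chrX:55030946-55030975, minus strand: ctgtcattcgttcgtcctCAGTGCagggca
The FTL run spans bases 21 to 50 from the RefSeq start, with the bulged C at base 33 and the loop at bases 39 to 44. Its stem pairs ttcaa with ttgga. The shorter core CAGTG was also in 1 window of NCOA4, without the bulged C at its place, and in 6.48% of all windows. A terminal oligopyrimidine start, a C followed by at least 4 pyrimidines, was in 1 of the 13 windows, 1 of the starts of SLC11A2, and in 4.07% of all windows. Whether the transcripts of the authors' deposited table begin at these RefSeq starts was not examined.

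FTL had the highest translation efficiency change of the set, and TFRC was the only other member called. Each gene has 1 coefficient for drug against DMSO, a log ratio taken as a natural log, and a positive value means more ribosome-protected RNA per mRNA with decitabine. The error given is a standard error (SE) implied by the coefficient and its p-value, since values per library were not analysed here. In the authors' deposited table FTL had a coefficient of 0.70 ± 0.14 (implied SE) and an adjusted p of 0.000457. This is 2.00 times the DMSO level, with a 95% interval of 1.52 to 2.64. If the coefficient were a log2 value, the ratio would be 1.62. FTL ranked 178 of 6309 genes by coefficient and 11 by p-value. Among the 40 higher calls it ranked 4 by coefficient, and their median was 0.34. In the plot of coefficient against standard error, genes further right reach larger coefficients with larger errors.

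**Figure D1:**
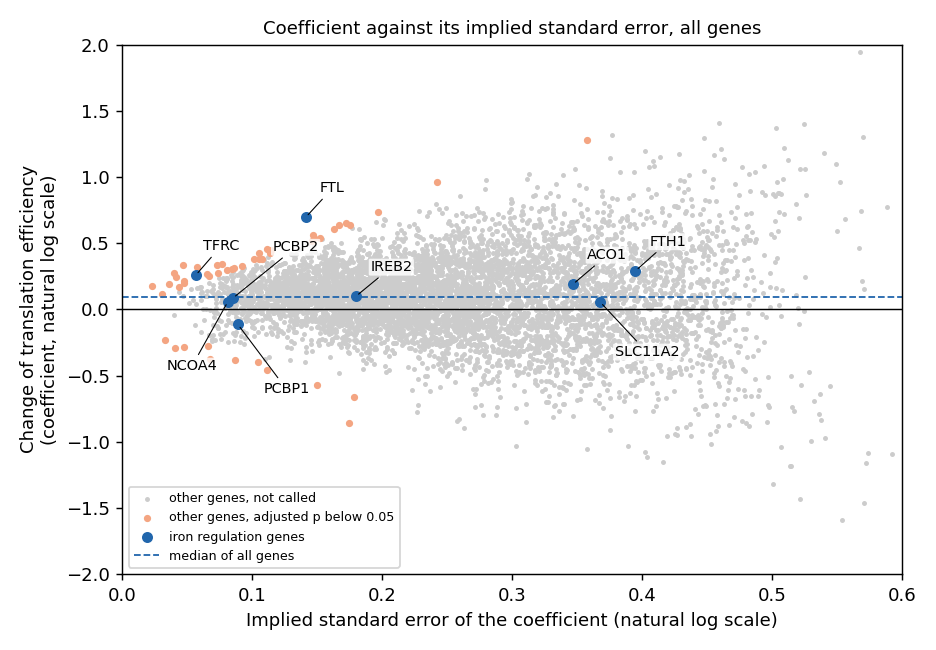
Coefficient of drug against DMSO (vertical axis, natural log scale) against its implied standard error (horizontal axis), 1 point per gene; large blue points are the 9 iron regulation genes, orange points other genes with an adjusted p below 0.05, and 18 genes lie outside the axes. TFRC, NCOA4, PCBP1 and PCBP2 sit at standard errors below 0.1, FTL at 0.14, and FTH1, SLC11A2 and ACO1 above 0.3.

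FTH1 encodes the heavy chain, which holds the ferroxidase site and assembles with the light chain into one shell. In the authors' deposited table its coefficient was 0.29 ± 0.39 (implied SE) and its adjusted p 0.862. The 95% interval of the ratio ran from 0.617 to 2.90 times the DMSO level and so held both no change and the value of FTL. At that precision a coefficient of at least 1.40, or 4.06-fold, would have been needed for a call, against 0.50 for FTL. The FTH1 coefficient was less precise than those of 86.9% of all genes. Whether both ferritin chains moved alike could not be told at this precision. RefSeq lists 20 pseudogenes named for FTL and 27 named for FTH1, against 0 for TFRC. No source used here says how reads shared with those copies were assigned, so both ferritin values are uncertain.

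TFRC encodes the receptor that brings transferrin-bound iron into the cell. In the authors' deposited table its coefficient was 0.26 ± 0.06 (implied SE) and its adjusted p 0.002. This is 1.29 times the DMSO level (95% interval 1.16 to 1.44). It ranked 1634 by coefficient but 15 by p-value, and only 0.317% of genes had a smaller implied SE. The whole table was shifted: the median of all coefficients was 0.09. After subtraction of that median TFRC stood at 0.16, with a 95% interval of 0.05 to 0.27, and was no longer called (adjusted p = 0.231, Benjamini-Hochberg over all genes, recomputed from the authors' coefficients and p-values). FTL stood at 0.60 and remained called (adjusted p = 0.00649 in that recomputation from the authors' values). The call of TFRC thus rests on where zero is placed, and that of FTL does not under this centring.

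FTL and TFRC, which carry their IREs at opposite ends, had coefficients of the same sign, with 95% intervals of 0.42 to 0.97 and 0.15 to 0.37. Both were chosen for these values, so neither the shared sign nor the distance between them was tested. SLC11A2, which carries iron out of endosomes and has a transcript form with an IRE after its coding region, had in the authors' deposited table a coefficient of 0.06 ± 0.37 (implied SE, adjusted p = 0.975). Its interval of -0.66 to 0.78 held the coefficients of TFRC and FTL alike, and which transcript form was counted in terms of the IRE was not examined.

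**Figure D2:**
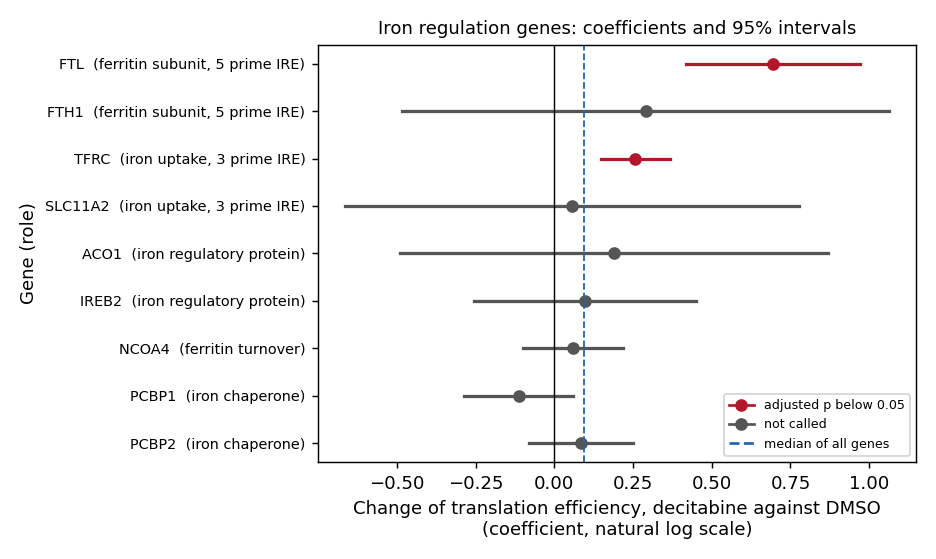
Coefficient of drug against DMSO (horizontal axis, natural log scale) for each of the 9 genes (vertical axis); bars are 95% intervals from the implied standard error, red marks an adjusted p below 0.05, and the dashed line is the median of all genes at 0.09. FTL at 0.70 and TFRC at 0.26 are called, while the intervals of the other 7 genes include 0.

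The sensors of iron gave no call. ACO1, whose protein is a cytosolic aconitase when it holds an iron-sulphur cluster and an RNA-binding protein when it does not, had in the authors' deposited table a coefficient of 0.19 ± 0.35 (implied SE, adjusted p = 0.911). IREB2, whose protein is degraded when iron is plentiful, had in the authors' table a coefficient of 0.10 ± 0.18 (implied SE, adjusted p = 0.911). The interval of IREB2, 0.776 to 1.57 times the DMSO level, was the narrower of the pair, and that of ACO1 ran from 0.612 to 2.38.

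The genes that load and empty ferritin were measured more precisely than most, and none was called. NCOA4, the receptor that delivers ferritin to lysosomes, had in the authors' deposited table a coefficient of 0.06 ± 0.08 (implied SE, adjusted p = 0.862). For PCBP2, an RNA-binding protein that also carries iron, the authors' deposited table gave 0.08 ± 0.08 (implied SE, adjusted p = 0.782). For PCBP1, an iron chaperone to ferritin, the authors' deposited table gave -0.11 ± 0.09 (implied SE, adjusted p = 0.712), the only value below 0 among the members. Relative to the median of all genes PCBP1 stood at -0.21 (unadjusted p = 0.019 and Benjamini-Hochberg adjusted p = 0.48, recomputed from the authors' values), and NCOA4 and PCBP2 at -0.04 and -0.01. The upper bounds of the intervals were 1.24-fold for NCOA4, 1.29-fold for PCBP2 and 1.06-fold for PCBP1. RefSeq lists 4 pseudogenes each for NCOA4 and PCBP2.

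Over the 9 genes, 2 were called higher and 0 lower in the authors' deposited table, where 0.808% of all genes were called, 0.634% higher and 0.174% lower. Since FTL and TFRC were chosen for their values in this contrast, nothing is read from that share. The median of the 9 coefficients was 0.10, against 0.09 for all genes; 8 were above 0, but relative to the median of all genes 5 were above and 4 below. Without FTL and TFRC the median of the other 7 was 0.08, none had an unadjusted p below 0.05, and their adjusted p ranged from 0.712 to 0.975. Precision divided the set: 4 genes had an implied SE below 0.1, as 4.01% of all genes did, and 3 had one above 0.3, as 35.4% did.

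Among the called genes, those with the coefficients nearest to that of FTL were SPTLC1, a subunit of serine palmitoyltransferase, with 0.65, DMXL2 with 0.64 and ZMYM4 with 0.74 in the authors' deposited table. Their implied SEs of 0.17, 0.17 and 0.20 exceeded the 0.14 of FTL, and none of them was called after centring on the median (Benjamini-Hochberg adjusted p = 0.132, 0.129 and 0.129, recomputed from the authors' values). Nearest to TFRC were the RNA-binding protein gene HNRNPA2B1 with 0.25, the lactate dehydrogenase gene LDHA with 0.26 and the chaperone gene HSPA8 with 0.25 in that deposited table. Of these, with the same recomputation from the authors' values, HSPA8 was called after centring (adjusted p = 0.0388), while HNRNPA2B1 (adjusted p = 0.466) and LDHA (adjusted p = 0.382) were not. Likeness here is the distance between single coefficients of 1 contrast.

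Iron-related genes beyond the set were described through 10 lists, which hold 158 genes, 100 of them in the table. In the authors' deposited table the called genes of the 100 were FTL and TFRC, which were chosen for their values here. Of the other 98 genes 0 were called, where 0.808% of all genes were, and 8 had an unadjusted p below 0.05, as 10.3% of all genes had. The median over the 100 was 0.07, near the 0.09 of all genes.

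Genes of iron uptake, transport and export had a median of 0.06 over 11 measured. TFRC, chosen for its value, was called and 10 were not, where 0.808% of all genes were called. At that share a list of this size without a further call says nothing about its genes. Mitoferrin 1 (SLC25A37), which brings iron into mitochondria, had in the authors' deposited table a coefficient of 0.59 ± 0.35 (implied SE, adjusted p = 0.569). The authors' table gave the metal importer SLC39A8 -0.33 ± 0.21 (adjusted p = 0.611) and the ferric reductase CYBRD1 -0.40 ± 0.27 (adjusted p = 0.645). EXOC6, an exocyst subunit, had 0.25 (adjusted p = 0.776, as the authors deposited it). The members thus lay on both sides of 0, with 5 above and 6 below the median of all genes.

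Haem synthesis and breakdown had a median of 0.08 over 11 genes and no call, where 0.808% of all genes were called. The lowest was FLVCR1, a haem and choline transporter, for which the authors' deposited table gave -0.90 ± 0.43 (implied SE, adjusted p = 0.426). In the authors' table ABCB10, a transporter of the inner mitochondrial membrane, had 0.23 ± 0.12 (adjusted p = 0.489), CPOX 0.31 (adjusted p = 0.68) and UROD 0.25 (adjusted p = 0.752); CPOX and UROD encode enzymes of the pathway. Iron-sulphur cluster assembly had the lowest median of the lists, -0.04 over 22 genes, 12 of them below the median of all genes. None was called, beside the same 0.808% of all genes. Its smallest p-value belonged to HSPA9, the mitochondrial HSP70 that hands clusters on, for which the authors' deposited table gave 0.31 ± 0.10 (implied SE, adjusted p = 0.131). In the authors' table NFS1, the cysteine desulphurase that supplies sulphur, had 0.43 (adjusted p = 0.596), the transporter ABCB8 -0.52 (adjusted p = 0.643) and ferredoxin FDX1 -0.67 (adjusted p = 0.652).

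FTL and FTH1 are also known targets of the oxidative stress factor NRF2 and its antagonist BACH1. These act on transcription, so on the amount of mRNA, which was not analysed here. A link to them was not tested. The list of targets and controls of NRF2 and BACH1 had a median of 0.13 over 17 genes. Of these, 9 lay above and 8 below the median of all genes, with coefficients from -0.29 to 0.70. FTL, chosen for its value, was called higher and 16 were not called, where 0.634% of all genes were called higher. GCLC, the catalytic subunit of the first enzyme of glutathione synthesis, had in the authors' deposited table a coefficient of 0.64 ± 0.26 (implied SE, adjusted p = 0.285), a coefficient close to that of FTL with a larger error. In the authors' table NFE2L2, which encodes NRF2, had 0.30 ± 0.19 (adjusted p = 0.597) and thioredoxin (TXN) 0.16 ± 0.11 (adjusted p = 0.672). TKT, the transketolase of the pentose phosphate pathway, had in the authors' deposited table a coefficient of -0.17 ± 0.06 (implied SE, adjusted p = 0.183). After centring on the median TKT stood at -0.27 and was called lower (Benjamini-Hochberg adjusted p = 0.00454, recomputed from the authors' values). With that centring 0.586% of all genes were called, 0.507% lower and 0.0793% higher, against 0.174% lower as deposited. The call of TKT thus rests on where zero is placed.

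The ferroptosis list held genes that defend against or drive the iron-dependent death of cells by lipid peroxidation. It had a median of 0.26 over 11 genes, against 0.09 for all genes, and a median implied SE of 0.26. TFRC, chosen for its value, was called and 10 were not, where 0.808% of all genes were called. Of the 11 genes 8 lay above the median of all genes, and no set test was made. Without TFRC the median was 0.27. In the authors' deposited table GSS, which makes glutathione, had 0.46 ± 0.22 (implied SE, adjusted p = 0.424), SLC3A2, the heavy chain of the cystine importer, 0.19 (adjusted p = 0.652) and LPCAT3, a phospholipid-remodelling enzyme, 0.43 (adjusted p = 0.699). A list of iron-dependent enzymes and their subunits took in nucleotide metabolism, DNA replication and repair, oxygen sensing and demethylation. It had a median of 0.05 over 28 genes, 11 above and 17 below the median of all genes. Coefficients ran from -0.62 to 0.98, and no gene was called, where 0.808% of all genes were. TET3, which oxidises 5-methylcytosine, came nearest, with 0.98 ± 0.28 (implied SE) and an adjusted p of 0.0535 as the authors deposited it. In the authors' table P4HB (a subunit of collagen prolyl hydroxylase), POLE (a replicative DNA polymerase) and KDM5A (a histone demethylase) had 0.13, 0.28 and 0.31 with adjusted p of 0.151, 0.393 and 0.488.

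**Figure D3:**
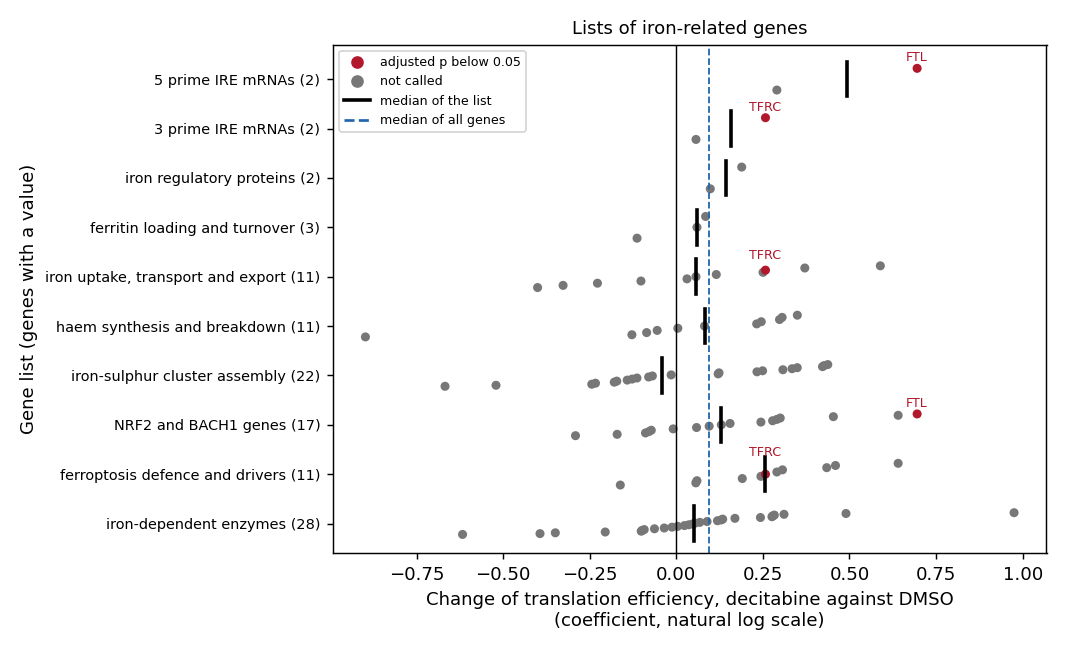
Coefficients of drug against DMSO (horizontal axis, natural log scale) of the measured genes of 10 iron-related lists (vertical axis, number of genes in brackets); points are genes, spread vertically for sight only, red marks an adjusted p below 0.05, thick bars are list medians and the dashed line is the median of all genes. FTL and TFRC, each in several lists, are the only red points, and the list medians lie between -0.04 and 0.49.

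In the genome (GRCh38.p14, whole-gene spans) FTL lies on chromosome 19 from 48965309 to 48966879, FTH1 on chromosome 11 from 61964285 to 61967634 and TFRC on chromosome 3 from 196049284 to 196082090. The transcripts of the authors' deposited table were ENST00000331825 for FTL, ENST00000273550 for FTH1 and ENST00000360110 for TFRC.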

How the data were processed

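Ribosome-protected fragments and total RNA were sequenced. The submitters' processing notes name hg38, UMI-tools 1.1.1, SAMtools 1.11 and Bowtie2; their roles and settings, the model, its count filter and its library scaling are given in no source used here. The deposited table holds, per the file headers, 1 coefficient for the drug per gene, taken as a natural log although the base is not stated, with its p-value, adjusted p-value and q-value. The planned count test could not be run, since no column holds counts, and depth is unknown. Wells were seeded in duplicate, and no source used here ties them to separate cultures, so any spread between them may be technical. Since the model is not given, it is not known whether the p-values measure that spread. The same holds for the implied SEs and intervals taken from them. The implied SE is the size of the coefficient divided by the z of its p-value, and 95% intervals use it. Genes were called at an adjusted p below 0.05. Python 3.11.15, scipy 1.17.1 and pandas 2.3.3 were used. The recomputation was run on simulated data with normal errors of the implied size and a constant shift. That checks the code, and cannot show whether the implied SE or the centring suits these data. The members and lists were chosen with earlier results of these data known. From each list the called genes and up to 4 others with the smallest p-values are named, and for FTL and TFRC the 3 called genes with the nearest coefficient. Alternatives were 2 centrings, other thresholds and adjustments, and removal of the least precise 25% of genes.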

Additional observations from a re-analysis of the deposited data

How the results depend on the processing

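The number of members called fell from 2 to 1 after centring on the median and to 1 after centring on the precision-weighted mean (0.09), because TFRC was lost (Benjamini-Hochberg adjusted p = 0.231 and 0.216, recomputed from the authors' values); it was 2 under the other settings. Of the members, NCOA4, PCBP2 and SLC11A2 turned negative, at -0.035, -0.010 and -0.038 on the median and at -0.030, -0.0050 and -0.033 on the weighted mean, which follows from the subtraction. In the lists, 2 genes were called as deposited and 2 after centring on the median, FTL with TFRC and then FTL with TKT; TET3 was added at a threshold of 0.1, by the authors' q-value and without the least precise genes (3 called). Over all genes, 40 higher and 11 lower calls became 5 and 32 on the median, 6 and 31 on the weighted mean, 13 and 6 at 0.01, 66 and 20 at 0.1, and 12 and 6 with the Benjamini-Yekutieli adjustment. No paired analysis was possible because the deposited table has no values per library, and leaving out a replicate was not run for the same reason. Signal depth is unknown, and FTH1, SLC11A2 and ACO1 are limited by their standard errors.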
